A study of Mus musculus with 19 samples.

Results

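The genes described here are 44 members of the machinery that copies DNA and divides the cell, found in the array annotation by their symbols or older aliases. Of the 44, 34 had a named probe and 31 passed the filter on dim probes, among 9523 genes tested in all. The 31 fall into replication licensing and fork proteins (10), deoxynucleotide supply (4), mitotic kinases and checkpoint (4), the anaphase-promoting complex partner Cdc20, chromosome and kinetochore proteins (3), spindle and cytokinesis proteins (7) and transcription factors (2). RNA of mouse neutrophils from 19 samples was measured on 1-colour Illumina BeadChips. The groups were tumour-associated neutrophils after treatment with SM16 (SM16, n = 5), an inhibitor of the TGF-beta receptor kinase Alk5, tumour-associated neutrophils without it (TAN, n = 3, numbered 1, 2 and 4), spleen neutrophils of mice that bore tumours (the granulocytic kind of myeloid-derived suppressor cell, G-MDSC, n = 4), and naive neutrophils of the bone marrow (NN, n = 7). The sources used here give neither the tumour line, mouse strain and age, nor the dose of SM16, nor how the cells were purified, nor whether a sample is 1 animal or a pool. The p-values therefore describe the spread between samples, which may be partly technical.

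Before DNA is copied, the Mcm proteins are loaded onto origins as a ring-shaped helicase by Cdc6 and Cdt1, and Cdc45 turns that ring into a moving fork. Entry into mitosis is driven by the kinase Cdk1 with its cyclins, and the kinases Plk1 and Aurka, motor proteins and the anaphase-promoting complex then carry chromosomes and cell through division. Neutrophils are made in the marrow by dividing precursors, the promyelocytes and myelocytes, and the later stages that enter blood and tissue are known to have left the cell cycle. In such bulk samples, fewer cells that express a gene and less RNA per cell cannot be told apart.

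Between 9599 and 12492 of 25697 probes were detected per array (detection p-value under 0.01), and levels below are log2 intensities after background correction and quantile normalization. Levels of different genes rest on different probes and are not set against each other. The neutrophil receptor gene Cxcr2 was detected on every array. The lowest signal of an array was 10.3 to 17.7 on all G-MDSC arrays and NN replicates 6 and 7, and 47.5 to 65.5 on the other arrays, so the arrays fall into 2 batches without a name in the labels, and the tumour groups share none with G-MDSC. Within TAN, replicate 4 correlated with replicates 1 and 2 at r = 0.881 and 0.891 across genes, which are not independent replicates, against 0.964 to 0.976 with the SM16 arrays, and comparisons with TAN are also given for replicate 4 alone. On G-MDSC replicate 1 the mean level of 8 tested B, T and NK cell markers was 10.23, against 6.75 to 7.03 on the other G-MDSC arrays. Macrophage and monocyte markers (8 tested) averaged 13.30 to 13.82 on the SM16 arrays and 13.17 on TAN replicate 4, against 10.37 and 10.78 on TAN replicates 1 and 2. The part of these cells in the results was not tested.

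For 21 of the 31 genes the mean level was highest in marrow neutrophils, lower in both tumour groups and lowest in the spleen. The median of the 31 genes on an array was 7.99 to 8.83 on the SM16 arrays, 8.01 to 8.61 on the TAN arrays, 6.78 to 7.59 on the G-MDSC arrays and 9.48 to 9.99 on the NN arrays. Both tumour groups thus overlapped each other, no G-MDSC array reached them, and no array of the 3 other groups reached the NN arrays. Of the 31 genes, 29 to 31 were detected on each SM16 array, 26 to 29 on each TAN array, 26 to 29 on each G-MDSC array and 30 or 31 on each NN array. The other 10 had another order of means. TAN lay below G-MDSC for Top2a, Cdk1, Mcm3, Mcm7, Kif11 and Kif23, SM16 lay below G-MDSC for Cdc45, Kif11, Kif23 and Pcna, and a tumour group had the highest mean for E2f1, Cdt1, Pcna and Mcm7, as G-MDSC had for Kif23.

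**Figure D1:**
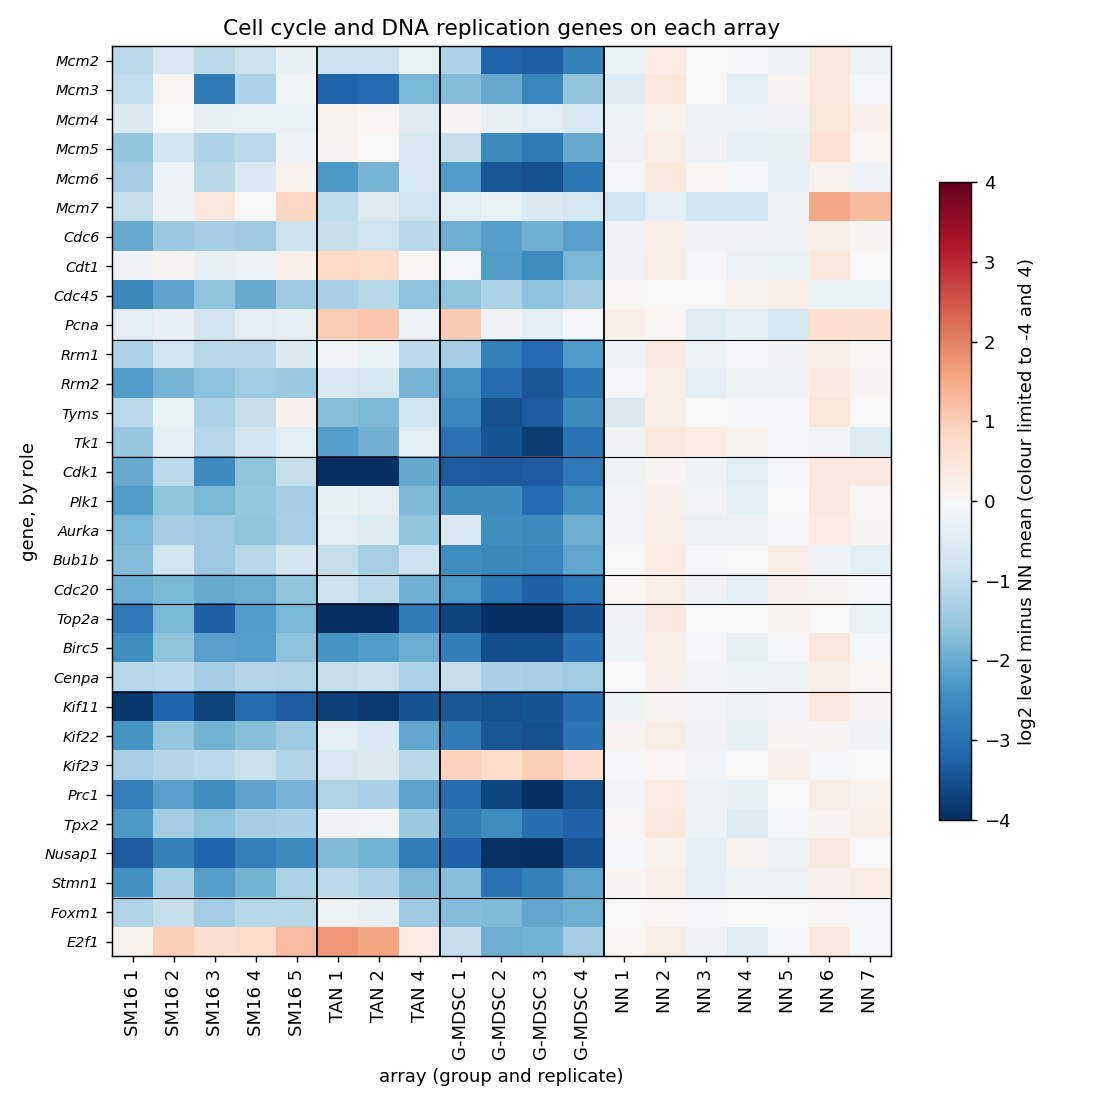
Each cell is the log2 level of 1 gene on 1 array minus the mean of that gene over the 7 NN arrays, with the arrays in columns by group and the genes in rows by role. Most rows are pale to blue in SM16 and TAN and darkest in G-MDSC, where the per-array median fell to 6.78 to 7.59. E2f1 is red in the tumour groups, Kif23 is red in G-MDSC, and Top2a and Cdk1 are dark blue on TAN replicates 1 and 2.

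Of the 10 genes that load and run the replication fork, 7 were lower in the spleen than in the marrow, 5 were lower in SM16 than in the marrow and 4 in TAN. Over all genes 23.5%, 31.7% and 30% were lower in these comparisons, and Mcm4, Mcm7 and Pcna were called in none of them. Mcm5, a subunit of the helicase ring, read 9.39, 10.21, 9.74, 9.90 and 10.81 on the SM16 arrays, 11.08, 11.004 and 10.33 on the TAN arrays, 10.05, 8.43, 8.16 and 8.97 on the G-MDSC arrays and 10.64 to 11.55 on the NN arrays (median 10.84). It was lower in G-MDSC than in NN by 2.08 on the log2 scale (SE 0.30, limma adjusted p = 9.11e-06), while the TAN change of -0.17 against NN did not pass (adjusted p = 0.655). TAN and NN arrays overlapped, and G-MDSC replicate 1 stood above the other G-MDSC arrays by more than 1 log2. Mcm6, its partner in the ring, read 9.16, 10.34, 9.44, 9.96 and 10.69 on the SM16 arrays, 8.26, 8.71 and 9.94 on the TAN arrays, 8.33, 7.14, 7.04 and 7.66 on the G-MDSC arrays and 10.23 to 10.96 on the NN arrays (median 10.51), so TAN replicate 4 lay among the SM16 arrays and TAN replicates 1 and 2 close to the highest G-MDSC array. It fell 8.12-fold in G-MDSC relative to NN (adjusted p = 9.44e-08) and 3.02-fold in TAN relative to NN, and the TAN call was lost with TAN replicate 4 alone (-0.63, adjusted p = 0.262). A weaker Mcm6 probe read 4.8 and 4.7 on TAN replicates 1 and 2 and 8.1 on TAN replicate 4.

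The 300 bases around the start of Mcm5 are shown because they hold the E2F motif known from replication genes. The window runs from 250 bases before to 50 after the RefSeq start in GRCm38.p6 (chr8:75109259-75109558 on the forward strand). Capitals mark matches to an E2F motif, where a forward and a reverse match overlap, and to the CCAAT box.
Mcm5: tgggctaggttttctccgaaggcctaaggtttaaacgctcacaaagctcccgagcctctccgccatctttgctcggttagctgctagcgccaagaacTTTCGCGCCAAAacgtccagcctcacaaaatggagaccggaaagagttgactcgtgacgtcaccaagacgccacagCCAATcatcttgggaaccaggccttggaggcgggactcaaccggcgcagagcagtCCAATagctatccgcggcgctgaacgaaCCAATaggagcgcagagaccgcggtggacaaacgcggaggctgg
E2F matches were also present in Cdc6, Cdt1 and Mcm6, which are shown with the match in capitals and 12 bases on either side where the window allows. In GRCm38.p6 the stretch of Cdc6 lies at chr11:98908001-98908032 on the forward strand, that of Cdt1 at chr8:122568035-122568064 on the forward strand and that of Mcm6 at chr1:128359733-128359764 on the reverse strand.
Cdc6: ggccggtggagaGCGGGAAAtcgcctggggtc
Cdt1: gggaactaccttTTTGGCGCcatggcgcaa
Mcm6: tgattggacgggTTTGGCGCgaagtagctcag

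Cdt1, which loads the helicase together with Cdc6, read 9.59, 9.81, 9.44, 9.48 and 9.93 on the SM16 arrays, 10.50, 10.45 and 9.80 on the TAN arrays, 9.64, 7.47, 7.23 and 7.88 on the G-MDSC arrays and 9.45 to 10.17 on the NN arrays (median 9.68). Tumour and marrow arrays overlapped, and the spleen arrays lay below both except G-MDSC replicate 1. The G-MDSC change against NN was -1.66 (SE 0.31, adjusted p = 0.000174), and within the batch that holds both groups it was -1.88 and missed the threshold (adjusted p = 0.0554). Cdc6 averaged 7.36 ± 0.40 in SM16, 7.85 ± 0.15 in TAN, 6.73 ± 0.14 in G-MDSC and 8.81 ± 0.20 in NN, and was lower in all 3 groups than in NN (adjusted p from 5.54e-09 to 0.0002). Cdc45, which activates the helicase, read 6.37, 6.85, 7.33, 6.95 and 7.50 on the SM16 arrays, 7.64, 7.82 and 7.32 on the TAN arrays, 7.35, 7.73, 7.32 and 7.56 on the G-MDSC arrays and 8.68 to 9.23 on the NN arrays (median 8.98). It was lower than NN in every other group, by 1.95 in SM16, 1.36 in TAN and 1.46 in G-MDSC (log2), and no array of those groups overlapped the NN arrays. Unlike most of the genes it was not raised in the tumour over the spleen: the TAN change against G-MDSC was 0.11 (adjusted p = 0.701) and the SM16 change was -0.49 (adjusted p = 0.0424), a call lost without background correction (-0.31, adjusted p = 0.0625).

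Mcm3 and Mcm7, further subunits of the ring, were dim. Mcm3 read 6.69, 7.77, 4.85, 6.46 and 7.58 on the SM16 arrays, 4.48, 4.57 and 5.86 on the TAN arrays, 5.97, 5.69, 5.08 and 6.11 on the G-MDSC arrays and 7.17 to 8.11 on the NN arrays (median 7.72), and was detected on 4 of 5 SM16 arrays, 1 of 3 TAN arrays, 3 of 4 G-MDSC arrays and all 7 NN arrays. The lowest SM16 array lay among the TAN arrays and the highest among the NN arrays. Mcm7 read 4.62, 5.38, 6.01, 5.58 and 6.39 on the SM16 arrays, 4.56, 5.02 and 4.73 on the TAN arrays, 5.11, 5.30, 4.98 and 4.87 on the G-MDSC arrays and 4.83 to 7.08 on the NN arrays (median 5.19). Its signal was detected on 4 of 5 SM16 arrays, on no TAN or G-MDSC array and on 2 of 7 NN arrays, replicates 6 and 7, which share the batch of the G-MDSC arrays. No Mcm7 change was called over all arrays, and within that batch Mcm7 was at least 2.92-fold lower in G-MDSC than in NN (adjusted p = 0.000369), a bound set by the lowest detected signal of each G-MDSC array. Mcm2 averaged 8.70 ± 0.32 in SM16, 8.81 ± 0.34 in TAN, 6.88 ± 0.95 in G-MDSC and 9.48 ± 0.26 in NN, while Mcm4 lay between 10.89 and 11.999 on every array and was called in no comparison. Pcna, the sliding clamp of DNA polymerases, read 6.40, 6.52, 6.09, 6.44 and 6.49 on the SM16 arrays, 7.88, 7.98 and 6.61 on the TAN arrays, 7.91, 6.72, 6.50 and 6.79 on the G-MDSC arrays and 6.16 to 7.52 on the NN arrays (median 6.92). Its G-MDSC change against NN was 0.12 (adjusted p = 0.772), and the highest values belonged to TAN replicates 1 and 2 and G-MDSC replicate 1.

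The 4 genes that supply deoxynucleotides were all lower in the spleen than in the marrow and the tumour. Over all genes 23.5% were lower in the spleen than in the marrow. Relative to the spleen, 37.6% were higher in TAN and 32.7% in SM16. Rrm2, the subunit of ribonucleotide reductase whose amount limits the enzyme in S phase, read 6.12, 6.51, 6.71, 6.93 and 6.86 on the SM16 arrays, 7.75, 7.64 and 6.48 on the TAN arrays, 5.97, 5.28, 4.92 and 5.43 on the G-MDSC arrays and 8.02 to 8.76 on the NN arrays (median 8.28). It was detected on 2 of 4 G-MDSC arrays and fell 7.75-fold in G-MDSC relative to NN (log2 -2.95, SE 0.25, adjusted p = 4.39e-09), with TAN and SM16 in between and no array of the 3 groups reaching NN. Tyms, the thymidylate synthase, read 8.62, 9.45, 8.43, 8.79 and 9.88 on the SM16 arrays, 8.004, 7.90 and 8.94 on the TAN arrays, 7.10, 6.18, 6.39 and 7.17 on the G-MDSC arrays and 9.12 to 10.20 on the NN arrays (median 9.69). Every tumour array lay above every G-MDSC array, and the SM16 arrays overlapped the marrow. Relative to NN, 2 of its 4 probes were called lower in SM16 and in TAN, and all 4 in G-MDSC. Tk1, the thymidine kinase of the salvage pathway, read 9.08, 10.21, 9.42, 9.85 and 10.12 on the SM16 arrays, 8.37, 8.65 and 10.12 on the TAN arrays, 7.59, 7.12, 6.78 and 7.59 on the G-MDSC arrays and 10.02 to 11.02 on the NN arrays (median 10.52). Its level was 9.90-fold lower in G-MDSC than in NN (adjusted p = 9.13e-09), 5.52-fold higher in SM16 than in G-MDSC (adjusted p = 1.16e-06), and on TAN replicate 4 within the range of the SM16 arrays. A weaker Tk1 probe changed less, by -1.67 in G-MDSC against NN and by 0.60 in SM16 against G-MDSC (log2). Rrm1, the other reductase subunit, averaged 8.78 ± 0.27 in SM16, 9.28 ± 0.50 in TAN, 7.39 ± 0.74 in G-MDSC and 9.75 ± 0.21 in NN.

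Top2a, the topoisomerase that untangles sister chromosomes, and Cdk1, the kinase that drives mitosis, had the widest range of the 31 genes over the arrays. Top2a read 7.94, 8.97, 7.54, 8.56 and 8.98 on the SM16 arrays, 4.57, 4.60 and 7.98 on the TAN arrays, 7.12, 6.62, 6.79 and 7.36 on the G-MDSC arrays and 10.53 to 11.12 on the NN arrays (median 10.77). Cdk1 read 8.01, 8.97, 7.53, 8.43 and 9.08 on the SM16 arrays, 4.40, 4.63 and 7.99 on the TAN arrays, 6.70, 6.69, 6.70 and 7.16 on the G-MDSC arrays and 9.59 to 10.43 on the NN arrays (median 10.01). On TAN replicates 1 and 2 neither gene was detected, while TAN replicate 4 matched the SM16 arrays and lay above the G-MDSC arrays for both genes. Top2a fell 14.2-fold in G-MDSC relative to NN (log2 -3.83, SE 0.45, adjusted p = 6.71e-07), and Cdk1 fell 9.35-fold (log2 -3.22, SE 0.47, adjusted p = 9.13e-06). Against the same marrow arrays, SM16 was lower by 2.40 for Top2a and by 1.63 for Cdk1 (adjusted p = 4.6e-05 and 0.00268).

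The windows of these genes are printed because both carry the pair of elements classically tied to expression in late cell cycle, the cell cycle homology region (CHR, TTTGAA or TTCGAA on either strand) and the CCAAT box, here in capitals (a forward match reads CCAAT, a reverse match ATTGG). In Cdk1 a single E2F match, TTTCGCGC, is in capitals as well. The Top2a window lies at chr11:99024140-99024439 on the reverse strand and the Cdk1 window at chr10:69352863-69353162 on the reverse strand (GRCm38.p6, 300 bases as above).
Top2a: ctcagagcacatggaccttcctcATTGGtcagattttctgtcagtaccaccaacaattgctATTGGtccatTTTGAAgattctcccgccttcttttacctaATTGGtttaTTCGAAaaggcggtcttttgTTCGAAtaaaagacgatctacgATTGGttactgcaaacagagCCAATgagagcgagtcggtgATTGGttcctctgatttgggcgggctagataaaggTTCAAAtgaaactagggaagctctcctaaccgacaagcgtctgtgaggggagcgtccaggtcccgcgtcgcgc
Cdk1: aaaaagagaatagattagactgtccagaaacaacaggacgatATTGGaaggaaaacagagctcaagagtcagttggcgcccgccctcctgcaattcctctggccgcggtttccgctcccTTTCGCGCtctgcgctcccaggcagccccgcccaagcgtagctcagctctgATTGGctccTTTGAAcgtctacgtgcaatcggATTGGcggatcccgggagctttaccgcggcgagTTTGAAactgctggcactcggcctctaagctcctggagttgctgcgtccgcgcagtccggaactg

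**Figure D2:**
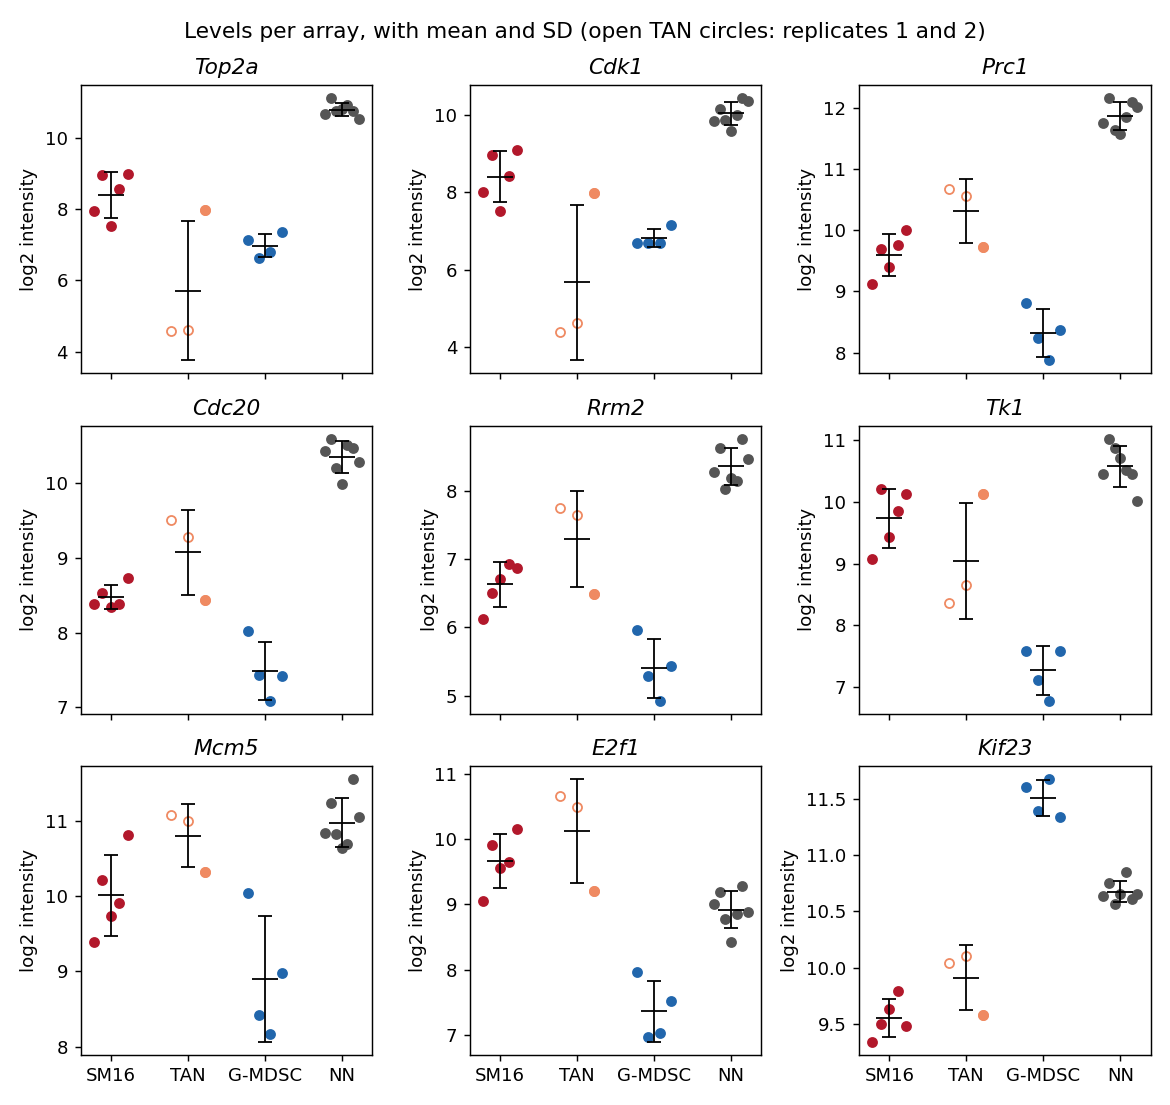
Each panel shows the log2 intensity of 1 gene on every array, with the groups SM16, TAN, G-MDSC and NN from left to right and the mean and SD of each group in black. TAN replicates 1 and 2 are open circles. For Top2a and Cdk1 the open circles lie at 4.40 to 4.63, below all other arrays, whereas for E2f1 they are the highest points and for Kif23 the G-MDSC arrays are highest (11.34 to 11.67).

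Plk1, a kinase of mitotic entry and exit, read 7.13, 7.78, 7.54, 7.83 and 8.03 on the SM16 arrays, 9.08, 8.97 and 7.59 on the TAN arrays, 6.85, 6.87, 6.25 and 6.96 on the G-MDSC arrays and 9.01 to 9.74 on the NN arrays (median 9.36), with TAN replicates 1 and 2 near the marrow and TAN replicate 4 among the SM16 arrays. It fell 6.25-fold in G-MDSC and 3.28-fold in SM16 relative to NN (adjusted p = 2.03e-08 and 1.33e-06). Aurka, the Aurora kinase of the spindle poles, averaged 8.07 ± 0.20 in SM16, 8.73 ± 0.63 in TAN, 7.71 ± 0.89 in G-MDSC, where the arrays ran from 7.08 to 8.99 with replicate 1 at the top, and 9.59 ± 0.21 in NN. Bub1b, a checkpoint protein that holds back anaphase, averaged 6.88 ± 0.44 in SM16, 6.996 ± 0.24 in TAN, 5.60 ± 0.25 in G-MDSC and 8.04 ± 0.23 in NN. Cdc20, which switches on the anaphase-promoting complex, read 8.38, 8.53, 8.35, 8.38 and 8.74 on the SM16 arrays, 9.50, 9.28 and 8.43 on the TAN arrays, 8.02, 7.43, 7.09 and 7.42 on the G-MDSC arrays and 9.98 to 10.59 on the NN arrays (median 10.43). No array of the other groups reached the NN arrays for Cdc20, which fell 3.67-fold in SM16 and 7.27-fold in G-MDSC relative to NN (adjusted p = 1.36e-08 and 1.99e-10), and its 4 probes were all called lower than NN in SM16, TAN and G-MDSC. The probes parted in other comparisons: 2 of 4 were called higher in TAN than in G-MDSC, and 1 of 4 lower in SM16 than in TAN. Another Cdc20 probe read 7.05 and 7.14 on TAN replicates 1 and 2, below the SM16 arrays (7.71 to 8.45).

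Birc5 (survivin), a member of the complex that corrects attachment of chromosomes to the spindle, read 7.99, 8.83, 8.27, 8.23 and 8.81 on the SM16 arrays, 8.08, 8.21 and 8.44 on the TAN arrays, 7.68, 6.88, 6.90 and 7.41 on the G-MDSC arrays and 10.14 to 10.88 on the NN arrays (median 10.37). The tumour arrays lay together below the marrow and above the spleen. Relative to NN it fell 4.03-fold in SM16, 4.57-fold in TAN and 9.31-fold in G-MDSC (adjusted p from 3.46e-11 to 2.37e-08). The other 2 Birc5 probes read 4.5 to 4.9 on TAN replicates 1 and 2 and 7.5 and 7.2 on TAN replicate 4, so against G-MDSC 1 of the 3 probes was called higher in TAN and 2 were called lower. Cenpa, the histone variant of centromeres, was bright on every array (11.37 to 13.04) and lower in all 3 groups than in NN, by 1.19 in SM16, 1.03 in TAN and 1.25 in G-MDSC (log2).

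All 7 spindle and cytokinesis genes were lower in SM16 than in NN, and 6 of them in TAN and in G-MDSC. Over all genes 31.7% were lower in SM16, 30% in TAN and 23.5% in G-MDSC. Kif11, the motor that pushes spindle poles apart, read 4.95, 5.65, 5.13, 5.75 and 5.48 on the SM16 arrays, 5.08, 4.99 and 5.35 on the TAN arrays, 5.38, 5.31, 5.36 and 5.78 on the G-MDSC arrays and 8.59 to 9.22 on the NN arrays (median 8.72), and was detected on 3 of 5 SM16 arrays, no TAN array, 1 of 4 G-MDSC arrays and all NN arrays. Outside the marrow its signal stayed near background. It was at least 7.77-fold lower in TAN than in NN, a bound set by the lowest detected signal of each TAN array (adjusted p = 2.83e-12), and 10.7-fold lower in SM16 than in NN (adjusted p = 3.58e-13). Nusap1, which binds spindle microtubules, read 8.33, 8.96, 8.48, 8.92 and 9.14 on the SM16 arrays, 9.87, 9.76 and 8.86 on the TAN arrays, 8.40, 7.69, 7.57 and 8.18 on the G-MDSC arrays and 11.32 to 12.02 on the NN arrays (median 11.63). Prc1, which bundles the central spindle before cytokinesis, read 9.12, 9.70, 9.39, 9.76 and 10.01 on the SM16 arrays, 10.66, 10.56 and 9.72 on the TAN arrays, 8.81, 8.23, 7.88 and 8.37 on the G-MDSC arrays and 11.57 to 12.16 on the NN arrays (median 11.84). For both genes TAN replicates 1 and 2 lay above the SM16 arrays and TAN replicate 4 lay among them, all below NN, and they fell 12.9-fold and 11.6-fold in G-MDSC relative to NN (adjusted p = 1.47e-11 and 1.76e-11). The other 2 Nusap1 probes were dimmer and changed less, by -0.81 and -1.13 in G-MDSC against NN (log2). On these probes TAN replicates 1 and 2 read 4.4 to 4.8, and the SM16 arrays 4.5 to 4.9.

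Tpx2, which activates Aurka on the spindle, read 5.64, 6.54, 6.31, 6.57 and 6.63 on the SM16 arrays, 7.79, 7.83 and 6.46 on the TAN arrays, 5.18, 5.45, 4.91 and 4.70 on the G-MDSC arrays and 7.42 to 8.32 on the NN arrays (median 7.99) and was detected on 1 of 4 G-MDSC arrays. TAN replicates 1 and 2 lay inside the marrow range, and all tumour arrays lay above the spleen arrays. Stmn1 (stathmin), which takes microtubules apart, read 5.92, 7.01, 6.13, 6.46 and 7.07 on the SM16 arrays, 7.27, 7.11 and 6.56 on the TAN arrays, 6.64, 5.39, 5.65 and 6.19 on the G-MDSC arrays and 8.004 to 8.65 on the NN arrays (median 8.47), with every NN array above every array of the other groups. Kif22, a motor that moves chromosomes along the spindle, averaged 8.30 ± 0.38 in SM16, 9.05 ± 0.91 in TAN, 6.90 ± 0.34 in G-MDSC and 10.09 ± 0.20 in NN.

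Kif23, the motor of the centralspindlin complex that builds the midbody in cytokinesis, went the other way. It read 9.34, 9.50, 9.63, 9.79 and 9.48 on the SM16 arrays, 10.04, 10.10 and 9.58 on the TAN arrays, 11.60, 11.40, 11.67 and 11.34 on the G-MDSC arrays and 10.57 to 10.85 on the NN arrays (median 10.65). The 4 G-MDSC arrays were the highest of all, the NN arrays came next and both tumour groups were lowest, with no overlap between G-MDSC, NN and the tumour groups. Kif23 rose 1.78-fold in G-MDSC relative to NN (log2 0.83, SE 0.12, adjusted p = 8e-06; 0.87 within the shared batch, adjusted p = 0.0019). In SM16 it was 3.88-fold lower than in G-MDSC and 2.18-fold lower than in NN (adjusted p = 1.51e-10 and 2.07e-08). The value rests on 1 probe.

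The Kif23 promoter window holds the CHR motif, as do those of other mitotic genes described above. CHR matches of Plk1, Aurka, Cdc20, Prc1 and Kif23 are shown in capitals with 12 bases on either side. In GRCm38.p6 these stretches lie at chr7:122159453-122159482 on the forward strand (Plk1), chr2:172370521-172370550 on the reverse strand (Aurka), chr4:118437344-118437373 on the reverse strand (Cdc20), chr7:80294434-80294463 on the forward strand (Prc1) and chr9:61946780-61946809 on the reverse strand (Kif23).
Plk1: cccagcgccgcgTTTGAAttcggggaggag
Aurka: aaaaggagaaccTTTGAAttgtaacggctg
Cdc20: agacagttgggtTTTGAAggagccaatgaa
Prc1: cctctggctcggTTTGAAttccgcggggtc
Kif23: ctgattggcctgTTTGAAatgcgccgggcg

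A promoter window was available here for 36 of the 44 genes, 38 windows in all. A CHR match was present in 22 of 38 windows (57.9%), against 19.2% of all 32851 windows. By role, 3 of 10 windows of the replication licensing and fork genes had one (30%) and 19 of 28 windows of the other genes (67.9%). An E2F match (TTTCCCGC, TTTCGCGC, TTTGCCGC or TTTGGCGC on either strand) was present in 6 of 10 windows of the replication licensing and fork genes (60%) and in 1 of 28 of the others (3.57%), against 2.26% of all windows. CCAAT was found in 31 of 38 windows (81.6%), against 37.4%. No CHR match overlapped an E2F or CCAAT match. A match is a run of letters and was not measured as a bound site.

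The 2 transcription factors of the set took different courses. Foxm1, which drives genes of late cell cycle, read 7.11, 7.40, 6.91, 7.18 and 7.17 on the SM16 arrays, 8.10, 8.02 and 6.84 on the TAN arrays, 6.58, 6.55, 6.24 and 6.36 on the G-MDSC arrays and 8.22 to 8.40 on the NN arrays (median 8.31), and was lower than NN in SM16 and G-MDSC by 1.16 and 1.88 (log2, adjusted p = 7.89e-06 and 6.86e-08). Its TAN change against NN was -0.66 (adjusted p = 0.00844), a call lost without TAN replicate 4 (-0.25, adjusted p = 0.13). E2f1, which drives genes of S phase, read 9.05, 9.90, 9.56, 9.65 and 10.15 on the SM16 arrays, 10.66, 10.49 and 9.20 on the TAN arrays, 7.96, 6.96, 7.02 and 7.51 on the G-MDSC arrays and 8.42 to 9.28 on the NN arrays (median 8.88). The tumour arrays lay within or above the marrow range, and all spleen arrays lay below it. E2f1 rose 2.30-fold in TAN relative to NN (log2 1.20, SE 0.29, adjusted p = 0.00114), a call that TAN replicate 4 alone did not give (0.29, adjusted p = 0.542). In SM16 it rose 1.68-fold relative to NN (adjusted p = 0.012), and with median scaling that call was lost (0.53, adjusted p = 0.125). It was 2.93-fold lower in G-MDSC than in NN (adjusted p = 6.21e-05).

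The comparison of spleen with marrow asks how the neutrophils that gather in the spleen of tumour-bearing mice differ from naive ones. In G-MDSC 27 of 31 genes were lower than in NN and 1, Kif23, was higher, where 23.5% of all genes tested were lower and 22.5% higher (45.9% in either direction). The median change of the 31 genes was -2.44, against -0.03 over all genes. The largest falls were those of Top2a, Nusap1 (-3.69, less on its 2 dimmer probes) and Prc1 (-3.54), and Mcm4, Mcm7 and Pcna were not called. For 27 genes every G-MDSC array lay to one side of all NN arrays, against 38.3% of all genes. Within the batch shared by the 4 G-MDSC arrays and NN replicates 6 and 7 the counts were again 27 lower and 1 higher, with Mcm7 gained and Cdt1 lost, and without G-MDSC replicate 1 they were 28 and 1. Of all 9523 genes 3378 were called within the batch and 4315 without G-MDSC replicate 1, against 4373 over all arrays.

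Neutrophils in the tumour were set against naive marrow neutrophils next. In TAN 22 of 31 genes were lower than in NN and E2f1 was higher, where 30% of all genes were lower and 39.3% higher (69.3% in either direction). The median change was -1.04, against 0.19 over all genes, and arrays did not overlap for 20 genes (51.8% of all genes). Top2a, Cdk1 and Kif11 had the largest falls: Top2a fell 33.95-fold and Cdk1 20.5-fold, each detected on 1 of 3 TAN arrays. With TAN replicate 4 alone the Top2a and Cdk1 changes were -2.82 and -2.04 (log2). The median change of the 31 genes was then -1.47, against 0.03 over all genes. Mcm6, Tyms, Tk1 and E2f1 changed by -0.63, -0.76, -0.45 and 0.29, against -1.59, -1.42, -1.53 and 1.20 over all TAN arrays. Rrm1 and Tpx2 changed by -1.04 and -1.48, against -0.47 and -0.58 over all TAN arrays. Within the batch of the tumour arrays and NN replicates 1 to 5, 23 genes were lower and 3 higher, the added ones being Mcm2, lower, and Cdt1 and Pcna, higher. Of all 9523 genes 6293 were called in that batch, against 6603 over all arrays.

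After SM16 treatment 25 of 31 genes were lower than in NN and E2f1 was higher, where 31.7% of all genes were lower and 32.9% higher (64.5% in either direction). The median change was -1.19, against 0.02 over all genes, and arrays did not overlap for 21 genes (54.1% of all genes). Kif11 (-3.42, SE 0.17), Nusap1 (-2.89, SE 0.20) and Top2a (-2.40, SE 0.42) fell furthest, with Nusap1 at -0.74 and -1.28 on its dimmer probes. All 7 spindle and cytokinesis genes, all 4 mitotic kinases and checkpoint genes and all 4 deoxynucleotide genes were lower, while of the 10 replication licensing and fork genes 5 were lower (Mcm2, Mcm3, Mcm5, Cdc6 and Cdc45). Within the batch of both groups 23 genes were lower and 1 was higher, and the calls of Mcm3 and Tyms were lost (adjusted p = 0.0935 and 0.0982). Of all 9523 genes 5866 were called there, against 6146 over all arrays.

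**Figure D3:**
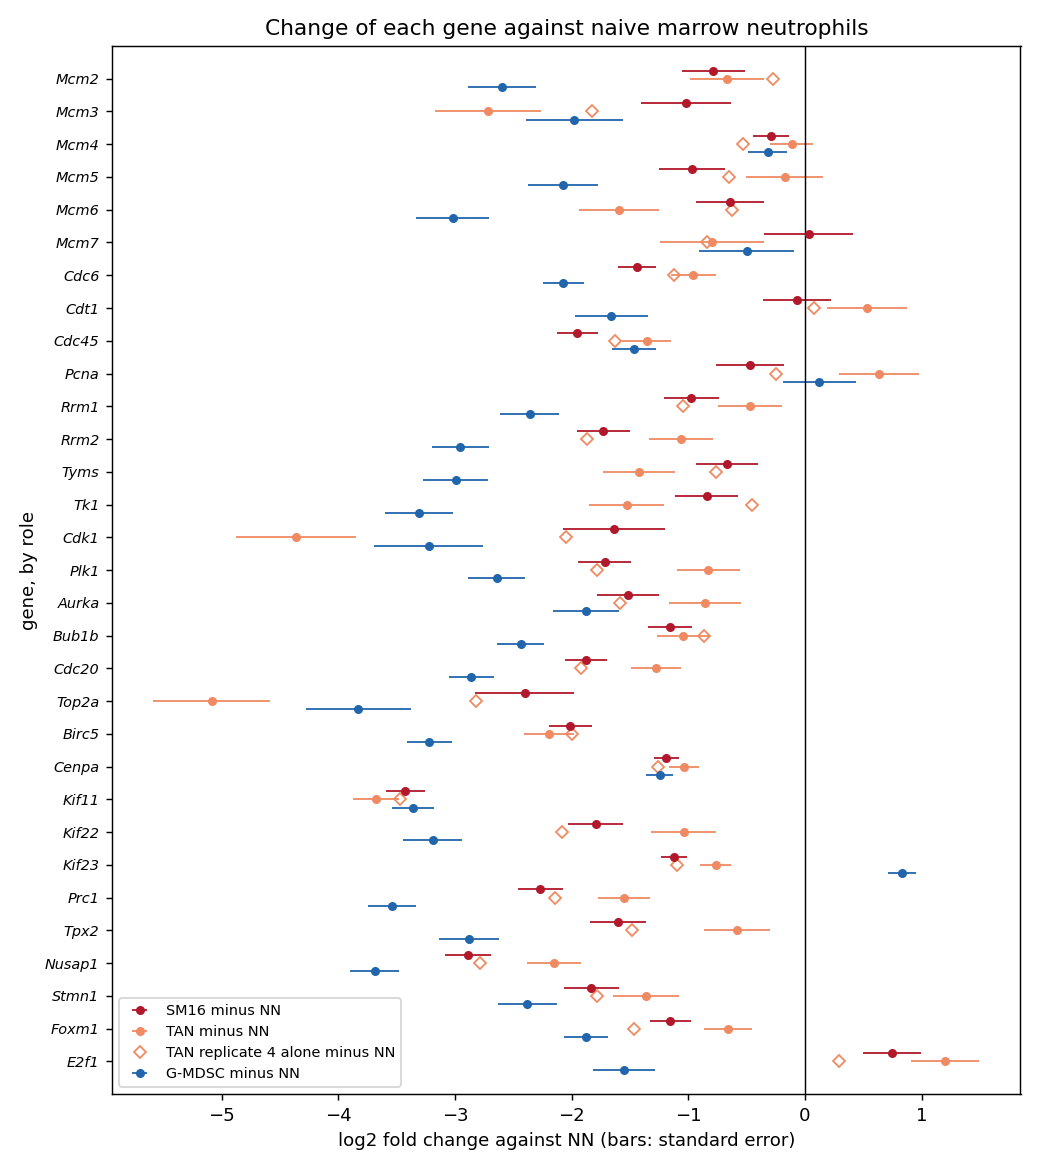
For each gene the log2 fold change against NN is plotted on the x axis with its standard error, for SM16, TAN and G-MDSC, and open diamonds give TAN replicate 4 alone. The G-MDSC points lie left of the SM16 points for most genes, the 3 groups nearly coincide for Cenpa and Kif11, Kif23 in G-MDSC lies at 0.83, and E2f1 lies right of 0 in SM16 and TAN. The open diamonds of most mitotic genes lie next to the SM16 points.

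The next comparison sets neutrophils of the tumour against those of the spleen. In TAN 21 of 31 genes were higher than in G-MDSC and 1, Kif23, was lower, where 37.6% of all genes were higher and 25.6% lower (63.2% in either direction). The median change was 1.39, against 0.19 over all genes, and arrays did not overlap for 19 genes (49.6% of all genes). E2f1 rose 6.74-fold (log2 2.75, SE 0.32, adjusted p = 7.1e-07), Tpx2 4.92-fold and Cdt1 4.58-fold (adjusted p = 4.61e-06 and 6.21e-05), Tpx2 against a group detected on 1 of 4 arrays. Among genes with several probes, both probes were called higher for Foxm1 and Rrm2. The calls were 1 of 2 probes for Mcm6 and Tk1, 2 of 4 for Cdc20, 1 of 3 for Nusap1 and 3 of 4 for Tyms. For Birc5 1 of 3 probes was called higher and 2 lower. With TAN replicate 4 alone the median change was 1.005, against 0.07 over all genes. Aurka, Stmn1 and Foxm1 then changed by 0.30, 0.60 and 0.41, against 1.02, 1.01 and 1.22 over all TAN arrays. Cdk1 changed by 1.18. Over all 3 TAN arrays the Cdk1 change had the opposite sign (-1.14, adjusted p = 0.0889), and Top2a turned likewise, with 1.005 for TAN replicate 4 alone (adjusted p = 0.0535) and -1.26 over all TAN arrays (adjusted p = 0.0536).

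In SM16 21 of 31 genes were higher than in G-MDSC and 2, Kif23 and Cdc45, were lower, where 32.7% of all genes were higher and 29.8% lower (62.4% in either direction). The median change was 1.11, against 0.05 over all genes, and arrays did not overlap for 18 genes (54.7% of all genes). Tk1 rose 5.52-fold (log2 2.47, SE 0.31), Mcm6 5.20-fold (2.38, SE 0.33) and Tyms 5.01-fold (2.33, SE 0.30). Their weaker probes rose less, by 0.60 for Tk1, 1.91 for Mcm6 and 0.83, 1.07 and 0.99 for Tyms (log2). The Tyms probe at 0.83 was not called (adjusted p = 0.0626). Tumour and spleen arrays share no batch, so these values have no within-batch counterpart. With the batch as a term, which rests on NN lying in both batches, 19 genes were higher and 2 lower in SM16 and 20 higher and 1 lower in TAN. Of all 9523 genes 3649 were then called in SM16 and 3885 in TAN. In SM16 against G-MDSC Top2a (1.21, adjusted p = 0.255), Cdk1 (2.09, adjusted p = 0.0507) and Foxm1 (0.69, adjusted p = 0.107) were no longer called. In TAN against G-MDSC the calls of Mcm6, Tk1 and Aurka were lost (adjusted p = 0.055, 0.0516 and 0.054), and Pcna was added. Mcm7 was added in SM16 (2.47) and in TAN (1.64), though no TAN or G-MDSC array detected it. Without the term its TAN change was -0.30. With median scaling the median of all genes moved to -0.28 in SM16 and -0.15 in TAN against G-MDSC. The counts of the 31 genes were then 15 higher and 4 lower in SM16 and 16 higher and 2 lower in TAN. Of all 9523 genes 5944 were called in SM16 and 5558 in TAN with that scaling.

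Whether inhibition of the TGF-beta receptor kinase changes the cell cycle genes of tumour neutrophils is the last comparison. In SM16 4 of 31 genes were higher than in TAN and 9 lower, where 17.8% of all genes were higher and 28.2% lower (46% in either direction). Within their shared batch the counts were 4 higher and 10 lower, where 4353 of all 9523 genes were called, against 4380 over all arrays. The calls of Mcm6, Kif22 and Kif23 were lost there (adjusted p = 0.0505, 0.0692 and 0.0594). Mcm5, Cdt1 and Aurka, lower, and Mcm7, higher but detected on no TAN array, were added. Over all arrays the median change was -0.47, against -0.21 over all genes, and arrays did not overlap for 1 gene, Pcna (23.6% of all genes). Cdk1 (2.73, SE 0.55, adjusted p = 0.000786), Top2a (2.68, SE 0.53, adjusted p = 0.000706) and Mcm3 (1.70, SE 0.48, adjusted p = 0.00826) had the largest rises. Pcna (-1.10, adjusted p = 0.0194), Tpx2 (-1.02, adjusted p = 0.0102) and Plk1 (-0.89, adjusted p = 0.0163) had the largest falls on the probes used. Other probes parted from these calls. Birc5 was not called, yet 2 of its 3 probes were called higher (1.94 and 1.86, adjusted p = 0.00239 and 0.00639). Rrm2 was not called, yet its second probe was lower (-1.34, adjusted p = 0.000435). Nusap1 was called lower by 1 of 3 probes, while both Mcm6 probes were called higher. On the same arrays 7 of 8 macrophage and monocyte markers and 6 of 9 endothelial markers were higher in SM16 than in TAN, and their part in these changes was not tested.

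Against TAN replicate 4 alone, each of the 13 called genes changed by less than over all TAN arrays. The median change of the 31 genes against that array was 0.043, against -0.02 over all genes. Cdk1, Top2a and Mcm3 changed by 0.41, 0.42 and 0.81. A fit of both groups alone called 2 of the 31 genes higher and 1 lower, where 2365 of all 9523 genes were called, against 4380 over all arrays. Without TAN replicate 1 or TAN replicate 2 the counts were 2 higher and 0 lower, where 2276 and 2424 of all genes were called. Without TAN replicate 4 they were 6 and 16, where 6018 of all genes were called.

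TAN replicates 1 and 2 departed from replicate 4 in the same direction for nearly every gene. Both were above it for 20 of the 31 genes and both below it for 10, while replicates 1 and 2 were at most 0.47 apart. For 13 genes the difference exceeded 1 log2. These counts were not made over all genes. The departure was not confined to the 31 genes: across all genes tested, replicates 1 and 2 correlated at r = 0.992 with each other and at 0.881 and 0.891 with replicate 4. Of these 13 genes, Kif22, Plk1, E2f1, Tpx2, Pcna, Foxm1, Rrm2 and Aurka were the 8 that were higher on replicates 1 and 2, and Cdk1, Top2a, Tk1, Mcm6 and Mcm3 the 5 that were lower.

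**Figure D4:**
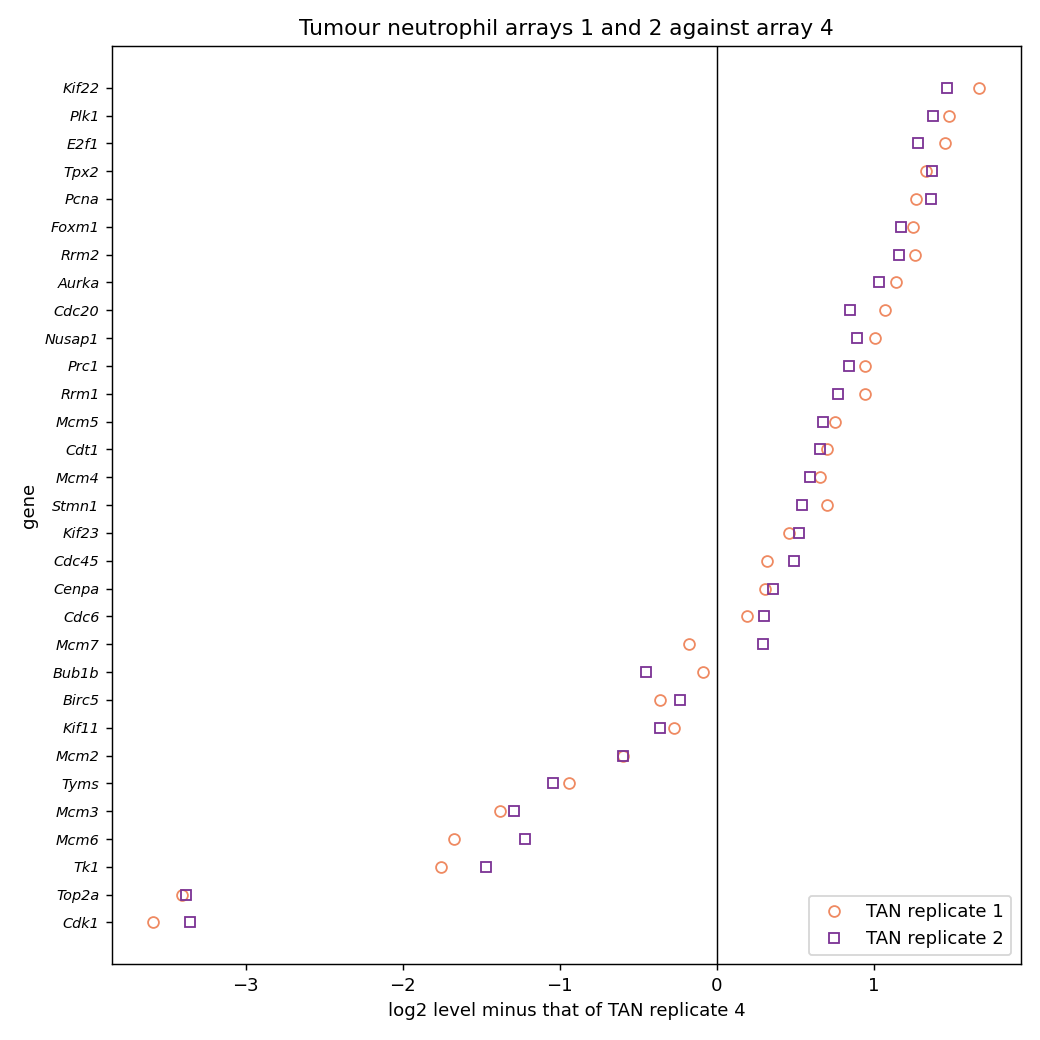
For each of the 31 genes the log2 level on TAN replicates 1 (circles) and 2 (squares) minus that on TAN replicate 4 is plotted on the x axis. Both replicates move together, at most 0.47 apart, with Cdk1 and Top2a far to the left, where neither replicate gave a detected signal.

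Granulocyte precursor and erythroid markers were measured beside these genes. The mean of 12 tested granulocyte precursor markers was 7.88 to 8.49 on the SM16 arrays, 7.96 to 8.62 on the TAN arrays, 10.17 to 11.13 on the G-MDSC arrays and 12.86 to 13.37 on the NN arrays. Mpo, the myeloperoxidase made by promyelocytes, averaged 5.05 ± 0.20 in SM16, where no array detected it, 6.53 ± 0.24 in TAN, 7.52 ± 0.82 in G-MDSC and 12.51 ± 0.47 in NN. Precursor markers stood higher in G-MDSC than in the tumour groups, opposite to the cell cycle genes. Of 12 precursor markers 4 were detected on no SM16 array (Mpo, Elane and, named after their values were seen, Ctsg and Ms4a3), 1 on no TAN array (Ctsg) and all on at least 1 array of G-MDSC and NN. The mean of 8 erythroid markers was 6.05 to 6.32 on the SM16 arrays, 6.06 to 6.29 on the TAN arrays, 6.67 to 7.40 on the G-MDSC arrays and 11.40 to 11.73 on the NN arrays, and Klf1, a transcription factor of red cell precursors, averaged 5.26 ± 0.24 in SM16, 5.58 ± 0.27 in TAN, 5.02 ± 0.49 in G-MDSC and 10.50 ± 0.20 in NN and was detected on 1 of 5 SM16 arrays, 0 of 3 TAN arrays and 1 of 4 G-MDSC arrays. Of the 8 erythroid markers 4 were detected on no SM16 array, 6 on no TAN array and 2 on no G-MDSC array. Both lists were highest in the marrow, as the cell cycle genes were, and their part in that result was not tested.

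Epithelial and fibroblast markers were higher in the tumour groups, and endothelial markers were not higher in TAN than in NN. The mean of 8 epithelial, mesothelial and tumour markers was 7.24 to 8.28 on the SM16 arrays, 7.16 to 7.75 on the TAN arrays, 4.65 to 4.79 on the G-MDSC arrays and 4.56 to 4.99 on the NN arrays. Krt18, a keratin of simple epithelia, averaged 8.78 ± 0.47 in SM16 and 9.59 ± 0.72 in TAN, and was detected on no G-MDSC or NN array. Of the 8 markers 7 were detected on no G-MDSC array, and the 7 tested fibroblast markers averaged 6.93 to 8.16 on the SM16 arrays and 6.90 to 7.06 on the TAN arrays, against 4.72 to 5.66 on the G-MDSC arrays and 5.36 to 5.98 on the NN arrays. The 9 tested endothelial markers averaged 7.03 to 7.93 on the SM16 arrays, 5.74 to 6.15 on the TAN arrays, 5.55 to 5.84 on the G-MDSC arrays and 7.00002 to 8.08 on the NN arrays, and 0 were called higher and 8 lower in TAN than in NN. What these cells add to the tumour levels of the cell cycle genes was not tested. On G-MDSC replicate 1, the array with the high B, T and NK cell markers, 18 of the 31 genes had the highest value of their group, and the precursor mean was 11.13, against 10.17 to 10.37 on the other G-MDSC arrays. The share of all genes that were highest on that array was not counted.

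**Figure D5:**
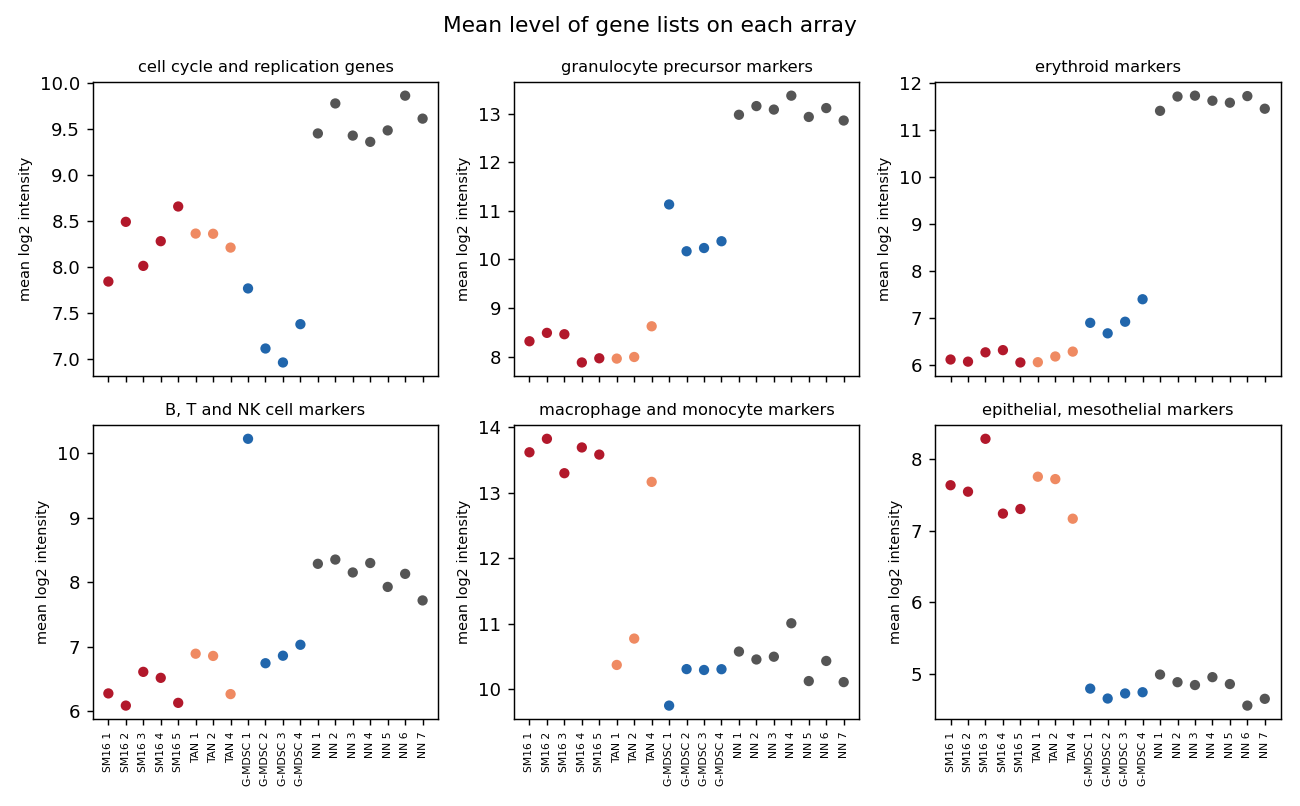
Each panel shows the mean log2 intensity of a gene list on every array, in the order SM16, TAN, G-MDSC and NN. The cell cycle genes are lowest in G-MDSC, whereas granulocyte precursor markers are lowest in the tumour groups (7.88 to 8.62). G-MDSC replicate 1 stands at 10.23 for B, T and NK cell markers, and TAN replicate 4 at 13.17 for macrophage and monocyte markers.

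Other genes of the same processes were counted from lists that hold none of the 44. Of 25 tested S-phase genes (40 listed), 0 were higher and 23 lower in G-MDSC than in NN, 0 and 19 in SM16 than in NN, and 2 and 11 in TAN than in NN. Their median change against NN was -1.51 in G-MDSC, -0.70 in SM16 and -0.42 in TAN, beside -0.03, 0.02 and 0.19 over all genes. The shares of all genes were 22.5% higher and 23.5% lower in G-MDSC, 32.9% and 31.7% in SM16, and 39.3% and 30% in TAN. Relative to G-MDSC, 19 S-phase genes were higher and 3 lower in SM16 (median 0.98), where 32.7% of all genes were higher and 29.8% lower. In TAN 18 were higher and 2 lower (median 1.45), where 37.6% of all genes were higher and 25.6% lower. Between SM16 and TAN, 2 were higher and 9 lower in SM16 (median -0.47). Over all genes 17.8% were higher and 28.2% lower there (median -0.21), 46% in either direction. Lig1, the ligase that joins Okazaki fragments, averaged 9.21 ± 0.31 in SM16, 9.75 ± 0.47 in TAN, 7.08 ± 0.72 in G-MDSC and 9.75 ± 0.27 in NN, and was 6.34-fold higher in TAN than in G-MDSC (adjusted p = 6.03e-07). Uhrf1, which carries DNA methylation through replication, fell 9.90-fold in G-MDSC relative to NN (log2 -3.31, SE 0.27, adjusted p = 2.77e-09).

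Of 31 tested further mitosis genes (45 listed), 2 were higher and 27 lower in G-MDSC than in NN, 2 and 26 in SM16 than in NN, and 3 and 22 in TAN than in NN, with medians of -2.29, -1.35 and -1.11. Over all genes 22.5% were higher and 23.5% lower in G-MDSC, 32.9% and 31.7% in SM16, and 39.3% and 30% in TAN, with the medians given for the S-phase genes. Relative to G-MDSC, 18 were higher and 3 lower in SM16 (median 0.64), and 18 higher and 4 lower in TAN (median 0.95). Over all genes the medians were 0.05 and 0.19, with the shares given for the S-phase genes. Between SM16 and TAN, 3 were higher and 6 lower in SM16 (median -0.20), no larger a share than the 17.8% higher and 28.2% lower of all genes (median -0.21). Pbk, a mitotic kinase, fell 12.5-fold in G-MDSC relative to NN (adjusted p = 7.63e-11). Sgo1, the shugoshin that guards centromere cohesion, averaged 5.52 ± 0.27 in SM16, 5.42 ± 0.38 in TAN, 4.82 ± 0.052 in G-MDSC and 8.40 ± 0.31 in NN, and no TAN or G-MDSC array detected it. The 4 genes lower in TAN than in G-MDSC were H2az1, Hmgb2, Cdc25b and Cdca8, of which Cdc25b and Cdca8 are named after their values were seen. H2az1, a histone variant, changed by -4.85 (adjusted p = 0.000298) and was detected on 1 of 3 TAN arrays. Hmgb2, a chromatin protein abundant in dividing cells, averaged 9.14 ± 0.72 in SM16, 8.45 ± 0.16 in TAN, 11.89 ± 0.68 in G-MDSC and 12.58 ± 0.15 in NN, and was 10.8-fold lower in TAN than in G-MDSC (adjusted p = 8.87e-08). Lmnb1, the lamin B1 gene, was 2.67-fold higher in TAN and 2.10-fold higher in G-MDSC than in NN (adjusted p = 5.15e-07 and 1.05e-05).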

How the data were processed

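RNA of 19 samples was measured on Illumina BeadChips, 1 array a sample. The table of the 25697 probes was used in which, per the file headers, a mean bead signal (an intensity on a linear scale, not normalized) stands beside a detection p-value for each array. The authors also deposited a normalized intensity table of 17004 probes, and GenomeStudio (version not given in the sources used here) is named per the submitters' processing notes. The labels' texts on treatment and RNA extraction concern fixed cervical biopsies and were not used.

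The neqc function of limma 3.58.1 (R 4.3.3, offset 16) took the background from the detection p-values, quantile normalized the signals and gave log2 values. Detection at 0.01 was required on at least 3 arrays, which left 13945 probes (13088 have a gene name, taken from the platform annotation of the normalized table's probes and updated to RefSeq symbols). A gene is its probe with the highest mean, which gave 9523 genes. The 4 groups were fitted in 1 limma model (15 residual degrees of freedom, eBayes with trend), 6 two-sided comparisons were made, and calls rest on a p under 0.05 after Benjamini-Hochberg adjustment across the 9523 genes. Every adjusted p is from limma. Levels are mean ± SD.

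Of the 44 genes, 10 had no named probe (Mki67, Ccnb1, Ccnb2, Aurkb, Bub1, Cenpe, Cenpf, Kif20a, Gins1 and Hmmr) and 3 failed the filter (Ccna2, Ttk and Ube2c, each detected on 2 NN arrays). All 31 that passed would also pass without the NN arrays. The genes and lists were chosen with earlier results of these data known, so no list was tested as a set. Array values are printed for a fixed selection of genes and for the called genes with the largest rises and falls of each comparison (up to 3 each). Of other lists, up to 3 called genes with the largest changes in a comparison, the inhibitors and defining markers may be named.

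No pairing by replicate number was seen: of 22 same-numbered pairs 6 correlated above 0.1 in their deviations from group means (r from -0.26 to 0.20). Pairs with different numbers ran from -0.33 to 0.31, so these correlations cannot decide whether samples were paired. Arrays were split into batches at a lowest signal of 30. Alternatives were no background correction, the authors' normalized table, no filter, median scaling, only both groups in the fit, a replicate block, the mean over probes, the batch as a term or within it, TAN replicate 4 alone and each replicate of groups of 3 to 5 left out. The fit was tested on simulated data. The number of arrays limits the precision. Promoter windows (RefSeq, GRCm38.p6) were searched on both strands.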

Additional observations from a re-analysis of the deposited data

Results flagged for a closer look

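In 93 sets of values, each 1 gene in 1 group of 4 to 7 arrays, a single array lay far from the others of its group in 4 (Dixon's gap criterion), where chance gives about 1 in 20. Pcna read 6.09 on SM16 replicate 3, against 6.40 to 6.52 on the other SM16 arrays. Cdk1 read 7.16 on G-MDSC replicate 4, against 6.69 to 6.70 on the other G-MDSC arrays. Kif11 read 5.78 on the same array, against 5.31 to 5.38. Plk1 read 6.25 on G-MDSC replicate 3, against 6.85 to 6.96 on the other G-MDSC arrays.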

How the results depend on the processing

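Of the genes called, 27 of 28 kept direction and call in all 13 alternatives in G-MDSC minus NN, 22 of 26 in all 14 in SM16 minus NN and 16 of 23 in all 13 in TAN minus NN. In TAN minus G-MDSC 15 of 22 did so in 16 alternatives, in SM16 minus G-MDSC 14 of 23 in 17, and in SM16 minus TAN 0 of 13 in 18. The 13 calls of SM16 minus TAN became 5 with median scaling, 3 with only both groups in the fit and 0 with TAN replicate 4 alone, and 2 to 22 when 1 replicate was left out (2 without TAN replicate 1 or 2, 7 without SM16 replicate 1, 22 without TAN replicate 4). Over all genes, the 4380 calls of that comparison became 3450 with median scaling, 3861 without SM16 replicate 1 and 6018 without TAN replicate 4. The cause was not tested.

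The median change moved to 0.043 in SM16 minus TAN and to -1.47 in TAN minus NN with TAN replicate 4 alone. It moved to -1.74 in G-MDSC minus NN without background correction and in the authors' table, and the cause was not tested. In TAN minus G-MDSC it was 0.78 without background correction, 0.78 in the authors' table, 0.85 with median scaling, 1.02 with the mean over probes and 1.005 with TAN replicate 4 alone. In SM16 minus G-MDSC it was 0.64, 0.63 and 0.75 in the first 3 of these. In SM16 minus TAN the median of -0.47 was also -0.30 with median scaling and -0.29 without TAN replicate 1. Among called genes, directions turned in SM16 minus TAN for Cdc20 (0.038 with the mean over probes and 0.044 with TAN replicate 4 alone), and for Mcm6 (-0.017), Plk1 (0.067) and Kif22 (0.29) with TAN replicate 4 alone, and for Birc5 in TAN minus G-MDSC with the mean over probes (-0.48). With TAN replicate 4 alone, genes not called over all TAN arrays turned too, as Cdk1 and Top2a did in TAN minus G-MDSC, and in SM16 minus TAN E2f1 (0.46, against -0.46 over all TAN arrays) and Foxm1 (0.31, against -0.50).

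With a replicate block the genes of the set called were 3 higher and 6 lower in SM16 minus TAN, 2 and 21 in TAN minus NN, 2 and 22 in SM16 minus NN, 1 and 27 in G-MDSC minus NN, 21 and 2 in TAN minus G-MDSC and 21 and 2 in SM16 minus G-MDSC. Of all 9523 genes 3844, 6057, 5788, 4290, 5802 and 5737 were called with that block, in the same order. Over all genes, 4380 calls in SM16 minus TAN became 2365 with only both groups, 451 with TAN replicate 4 alone, and 2276 and 2424 without TAN replicates 1 and 2. The 6022 and 5946 calls of TAN and SM16 minus G-MDSC became 3885 and 3649 with the batch as a term. Dim probes limit Mcm3, Mcm7, Kif11, Rrm2 and Tpx2.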

Other observations

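Genes that open or restrain the cycle did not share one direction. Of 13 tested inhibitors of the cell cycle, 3 were higher and 4 lower in SM16 than in NN, 6 and 4 in TAN than in NN, and 5 and 1 in G-MDSC than in NN. Over all genes 32.9% were higher and 31.7% lower in SM16, 39.3% and 30% in TAN, and 22.5% and 23.5% in G-MDSC, so the inhibitors as a list were called about as often as all genes. Cdkn1a (p21), which blocks cyclin-dependent kinases, averaged 14.01 ± 0.27 in SM16, 13.97 ± 0.18 in TAN, 9.85 ± 1.10 in G-MDSC and 6.46 ± 0.51 in NN. It rose 188-fold in SM16, 182-fold in TAN and 10.5-fold in G-MDSC relative to NN (limma adjusted p from 4.36e-14 to 7.31e-08). Gadd45b, a stress gene that restrains Cdk1, rose 22.3-fold, 20.4-fold and 7.89-fold in SM16, TAN and G-MDSC relative to NN (adjusted p = 4.26e-14, 1.57e-12 and 2.15e-10). Cdkn2c (p18) was lower than NN in all 3 groups, by 1.36 in SM16, 1.76 in TAN and 1.95 in G-MDSC (log2). Cdkn1b (p27) rose 3.59-fold in G-MDSC (adjusted p = 0.000269) and changed by -0.24 and 0.64 in SM16 and TAN (adjusted p = 0.551 and 0.157).

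Of 17 tested G1 cyclins, their kinases and E2F-Rb genes, 4 were higher and 12 lower in SM16 than in NN, 4 and 9 in TAN than in NN, and 3 and 11 in G-MDSC than in NN, beside the shares of all genes given above. The median changes were -1.12, -0.76 and -0.95, beside 0.02, 0.19 and -0.03 over all genes. Ccnd1 (cyclin D1) averaged 12.12 ± 0.24 in SM16, 11.59 ± 0.20 in TAN, 8.62 ± 0.58 in G-MDSC and 6.88 ± 0.40 in NN, and rose 37.9-fold in SM16 and 26.1-fold in TAN relative to NN (adjusted p = 2.68e-14 and 2.98e-12). E2f2, a relative of E2f1, took the opposite course to E2f1 in the tumour: it averaged 8.31 ± 0.40 in SM16, 9.83 ± 0.69 in TAN, 10.77 ± 0.42 in G-MDSC and 13.15 ± 0.41 in NN, and fell 28.7-fold in SM16 and 10.05-fold in TAN relative to NN (adjusted p = 5.96e-13 and 3.88e-09). Epithelial, fibroblast and macrophage markers were high on the same tumour arrays, and their part in the Cdkn1a and Ccnd1 levels was not tested.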
